A study of Sus scrofa with 6 samples.

Results

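The genes PAG6, IFN-DELTA-1, LIF and CD46 were described in pig (Sus scrofa) blastocysts of day 5 to 6 of development. They encode signals that pass between conceptus and uterus or a protein that shields cells from complement. They were chosen by name, as the array probes whose platform annotation carries one of these 4 symbols. Each symbol matched 1 probe, so the set holds 4 of the 20400 probes on the array and 4 of the 178 that have a gene symbol. Per the labels, 3 biological replicate RNA samples of day 5 blastocysts were hybridised in pairs on 6 arrays with 2 colours, and each pair was run on 2 arrays with the Cy5 and Cy3 dyes exchanged. The pairs were RNA samples 2 and 1 on arrays 1 and 2, RNA samples 3 and 1 on arrays 3 and 4, and RNA samples 3 and 2 on arrays 5 and 6. The design held 1 stage and no treatment, so the comparisons ask how far replicate blastocyst RNA differed. The labels say nothing of the breed, of how the embryos were produced or of how many went into an RNA sample.

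The blastocyst consists of an outer trophectoderm, which later forms the placental trophoblast, and an inner cell mass. In pigs the conceptus stays free in the uterine lumen for many days before it attaches, so signals cross by secretion between trophoblast and uterine epithelium. Pregnancy-associated glycoproteins are secreted members of the aspartic proteinase family made by the trophoblast of pigs, ruminants and related animals. Pig trophoblast also secretes interferons around attachment, interferon gamma and the short type I interferon known as interferon delta. LIF, leukaemia inhibitory factor, is a cytokine of the interleukin 6 family that signals through LIFR and IL6ST and is required in the uterus for implantation in mice. CD46, also called membrane cofactor protein, lets factor I cleave the complement fragments C3b and C4b on the surface of the cell that carries it.

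IFN-DELTA-1 and PAG6 belong to multigene families, and a probe may bind transcripts of close relatives. The RefSeq gene table of the pig assembly Sscrofa11.1 lists 11 IFN-DELTA genes on 1 chromosome, and the coding genes on either side of IFN-DELTA-1 are IFN-OMEGA-2 and IFN-DELTA-9. PAG6 has PAG2 and PAG10 as synonyms there and lies near PGA5, a pepsinogen gene of the same proteinase family. LIF lies beside OSM, which encodes oncostatin M, a cytokine of the same family. Values for IFN-DELTA-1 and PAG6 are therefore those of a probe and are uncertain as values of a single gene. The sequences of the probes were not used here.

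The deposited values were log2 ratios of the 2 channels of an array, here read as Cy5 over Cy3 because the labels list Cy5 as the first channel. The direction is likely but not stated, and the reverse would turn the sign of every difference below. A ratio that was a whole number, the reciprocal of one, or 1 counted as not measured, which held for 1.02% to 64.3% of the probes of an array, with the highest share on array 1. Of the 20400 probes, 5431 (26.6%) were measured on all 6 arrays, among them PAG6, IFN-DELTA-1 and CD46 but not LIF. The median of those 5431 probes was subtracted on each array, and arrays were turned so that a positive value means more in the higher-numbered RNA sample, or in RNA sample 2 against 1. Values are thus relative to the median probe. In such bulk RNA, fewer cells of a type and less RNA per cell cannot be told apart.

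The labelled tissue could hardly be checked with the annotated probes. None of the 11 trophectoderm markers had an annotated probe, and 1 of 6 inner cell mass markers (KLF4) and 1 of 4 primitive endoderm markers (GATA6) had one. Of markers of other cells, INHA, FSHR, BMP15, SAL1, CD4 and TYROBP had a probe, and the 5 fibroblast markers had none. Only INHA and SAL1 were measured on all 6 arrays.

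Most deposited ratios were ratios of whole numbers, so the least signal behind a value can be read from its lowest terms. Of the measured values of an array, 95.3% to 98.9% equalled a ratio of whole numbers up to 5000 (within a relative tolerance of 3e-09), against 1.07% to 2.85% of the same values shifted by 0.0001. If the channels held whole numbers, their signals were multiples of these terms, in a unit the files do not name. The smaller of the 2 terms had a median over probes between 26 on array 1 and 180 on array 4. CD46 had the highest smaller terms of the 4 genes on 4 of the 5 arrays where its terms were found.

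PAG6 (probe 19395, Entrez gene 396749) was the ratio 87 over 1292 on array 1, 1093 over 514 on array 2, 413 over 794 on array 3, 33 over 95 on array 4, 779 over 275 on array 5 and 103 over 623 on array 6. CD46 (probe 14213, Entrez gene 396922) was 67 over 741, 1594 over 753, 649 over 1559, 521 over 1056 and 2117 over 1092 on arrays 1 to 5, and its ratio on array 6 (0.128) had no terms up to 5000. IFN-DELTA-1 (probe 7300, Entrez gene 396854) had much smaller terms, 4 over 87, 85 over 38, 11 over 9, 92 over 55, 29 over 14 and 249 over 238 on arrays 1 to 6. LIF (probe 1685, Entrez gene 399503) was 43 over 73, 273 over 121, 262 over 229, 91 over 58 and 11 over 7 on arrays 2 to 6. On array 1 LIF was 1 over 26, a ratio that counts as not measured. Small terms can also arise when a ratio reduces, so 11 over 9 or 11 over 7 sets only a lower limit on the signal.

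**Figure D1:**
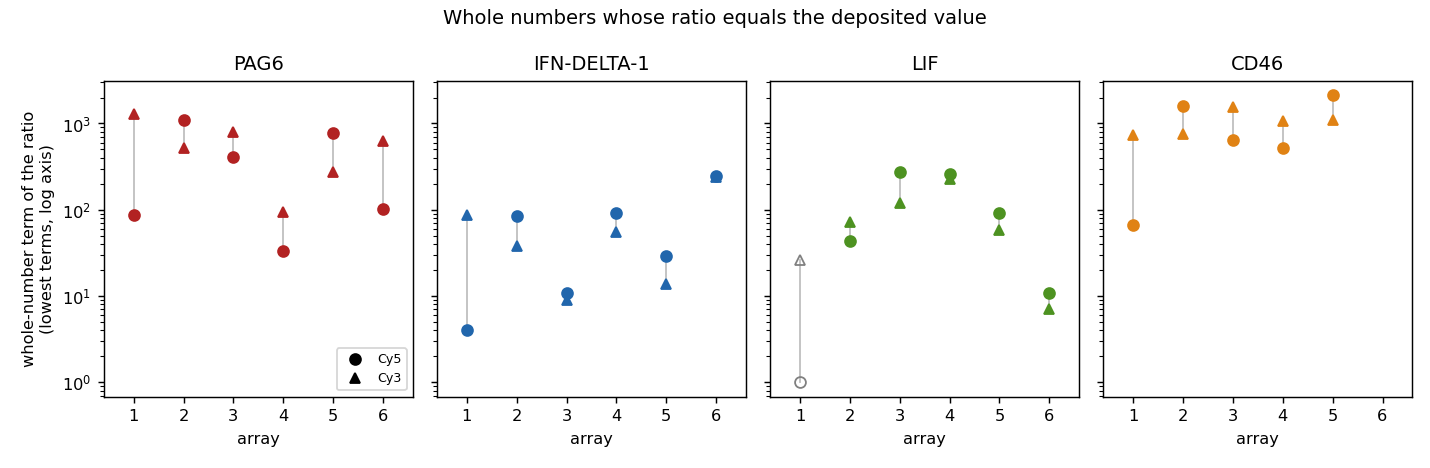
Whole-number terms, in lowest terms and on a log axis, of the ratio of each gene on arrays 1 to 6, with circles for Cy5 and triangles for Cy3. Grey open symbols mark LIF on array 1, which counts as not measured, and CD46 has no terms on array 6. CD46 reaches 2117 and PAG6 reaches 1292, while the highest term of IFN-DELTA-1 is 249 and that of LIF is 273.

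PAG6, the trophoblast glycoprotein, had a level 2.59-fold below that of RNA sample 2 in RNA sample 3, past the threshold. In the pair of RNA samples 3 and 2 the centred log2 differences were -1.11 on array 5 and -1.68 on array 6. In the pair 2 and 1 they were 1.40 on array 1 and 0.64 on array 2, and in the pair 3 and 1 they were 1.08 on array 3 and -1.71 on array 4. Every array that held RNA sample 2 therefore put PAG6 higher there, whereas the arrays of RNA samples 3 and 1 went opposite ways. Fitted over the loop in limma, the log2 difference between RNA samples 3 and 2 was -1.37 ± 0.43 (SE, 3 pair averages), with a 95% interval of -2.22 to -0.53 and an adjusted p of 0.0109. The same probe had 1.04 ± 0.43 between RNA samples 2 and 1 (adjusted p 0.0682) and -0.34 ± 0.43 between RNA samples 3 and 1 (adjusted p 1.00), so neither passed the threshold of 0.05.

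The 3 pairs of arrays nearly closed the loop for PAG6. Adding its averages for 2 minus 1 (1.02) and 3 minus 2 (-1.40) and subtracting that for 3 minus 1 (-0.31) left -0.07, where 0 means that the pairs fit together without remainder. The median size of this remainder over the 5431 probes was 0.65. With a moderated F test over the 3 RNA samples in limma, PAG6 had an adjusted p of 0.0222, and its F value lay at the 83.1 percentile of all probes tested. The call depended on the fit: the 6 single arrays with a dye term gave the same difference between RNA samples 3 and 2 with an adjusted p of 0.0484, but an F test adjusted p of 0.0907. Without array 1, 2, 4 or 5 the difference between RNA samples 3 and 2 was -1.53, -1.22, -1.02 or -0.97 and did not pass (adjusted p 0.0612, 0.364, 0.391 and 0.267). In each such fit the other array of the pair was corrected for the mean centred log2 ratio of Cy5 over Cy3 in the other pairs.

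CD46, the complement regulator, had a level 2.15-fold below that of RNA sample 2 in RNA sample 3, close to the threshold. Its differences in the pair of RNA samples 3 and 2 were -0.57 on array 5 and -2.05 on array 6. In the pair 2 and 1 they were 0.97 on array 1 and 0.63 on array 2, and in the pair 3 and 1 they were 1.40 on array 3 and -1.20 on array 4. As with PAG6, all 4 arrays with RNA sample 2 put CD46 higher there, and arrays 3 and 4 went opposite ways. The fitted log2 difference between RNA samples 3 and 2 was -1.11 ± 0.43 (SE, 3 pair averages; 95% interval -1.95 to -0.26), with an adjusted p of 0.0489 in limma. Between RNA samples 2 and 1 it was 1.00 ± 0.43 (adjusted p 0.0796), and between RNA samples 3 and 1 it was -0.10 ± 0.43 (adjusted p 1.00). The F test over the 3 RNA samples did not pass (limma, adjusted p 0.0707).

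The CD46 call was lost in most other settings. With the 6 single arrays and a dye term the adjusted p was 0.0856 at the same difference, and with arrays scaled to equal spread the value was -0.86 (adjusted p 0.0901). It passed without array 3 (-1.39, adjusted p 0.0107) and with values as deposited (-2.02), and leaving out array 1, 2, 4, 5 or 6 ended the call, with values between -1.39 and -0.82 (adjusted p 0.0625 to 0.583). The direction was the same in all 11 alternatives for CD46 and in all 12 for PAG6.

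**Figure D2:**
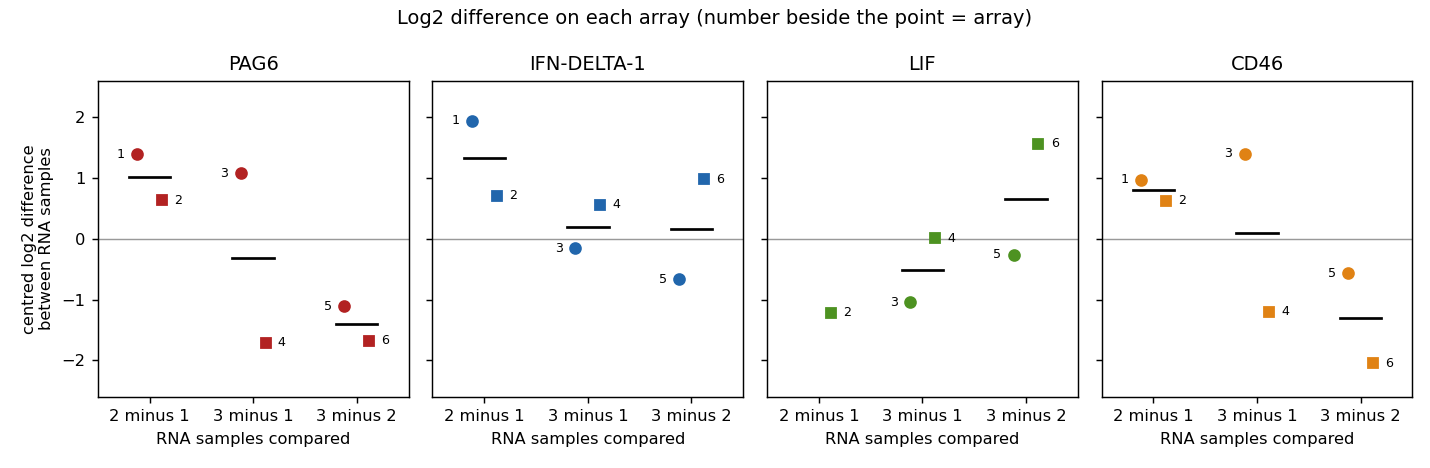
Centred log2 difference between the RNA samples named on the x axis, on each array, for the 4 genes. Circles are the first and squares the second array of a pair, the number is the array, and black lines are pair averages. PAG6 and CD46 lie above 0 on arrays 1 and 2 and below 0 on arrays 5 and 6, while LIF has no point for array 1 and no average for the first pair.

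Interferon delta showed no difference past the threshold. In the pair of RNA samples 2 and 1, IFN-DELTA-1 had log2 differences of 1.95 on array 1 and 0.71 on array 2. In the pair 3 and 1 it had -0.15 on array 3 and 0.56 on array 4, and in the pair 3 and 2 it had -0.66 on array 5 and 0.98 on array 6. With this centring, only the first pair agreed in direction. The fitted log2 difference was 0.90 ± 0.43 (SE) between RNA samples 2 and 1 (95% interval 0.06 to 1.74, limma adjusted p 0.120), 0.63 ± 0.43 between 3 and 1 (interval -0.21 to 1.47, adjusted p 1.00) and -0.27 ± 0.43 between 3 and 2 (interval -1.11 to 0.57, adjusted p 0.680). These intervals reach a 3.34-fold higher level in RNA sample 2 than in RNA sample 1, so the data do not show that the level was alike.

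The arrays fitted together less well for IFN-DELTA-1 than for PAG6. Its pair averages were 1.33 for 2 minus 1, 0.20 for 3 minus 1 and 0.16 for 3 minus 2. Its loop remainder was 1.29, at the 86.7 percentile of sizes over all probes tested, against 5.36 for PAG6 and 46.7 for CD46. The difference between RNA samples 2 and 1 was 0.10 without array 1 and 1.70 without array 2. In these fits the remaining array was corrected for the mean centred log2 ratio of Cy5 over Cy3 in the other pairs. That ratio was 0.36 in the pair 3 and 1 and 0.82 in the pair 3 and 2, but -0.62 in the pair 2 and 1 itself. These 2 values therefore rest on a correction opposite in sign to that of the pair. On array 1 the smaller term of its ratio was 4, the lowest of the 6 arrays.

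LIF could be compared in 2 of the 3 pairs. Its log2 differences were -1.04 on array 3 and 0.01 on array 4 for RNA samples 3 and 1, and -0.26 on array 5 and 1.57 on array 6 for RNA samples 3 and 2. In the pair 2 and 1 array 2 gave -1.21. The pair averages were -0.51 for 3 minus 1 and 0.65 for 3 minus 2, with the arrays 0.53 and 0.91 to either side of them. With this centring, the arrays of both pairs thus lay on opposite sides of 0. The distances of 0.53 and 0.91 hold the dye effect of the pair together with variation between the arrays, and are no standard error. The size of the 3 minus 1 average lay at the 90.8 percentile of the 19842 probes measured in that pair and that of the 3 minus 2 average at the 46.6 percentile of 13381.

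The level assigned to LIF in RNA sample 3 against 2 depended on the centring. It was 0.65 when arrays were centred on the probes measured on all 6, 0.20 when centred on the probes measured in that pair, and 0.0011 as deposited. With array 1 left out, 8411 probes were measured on the other 5 arrays and LIF could be fitted. Its log2 differences were then -1.47 ± 0.33 (SE) between RNA samples 2 and 1, -0.79 ± 0.33 between 3 and 1 and 0.68 ± 0.33 between 3 and 2, with limma adjusted p-values of 0.140, 0.999 and 0.304 and an F test adjusted p of 0.232. This fit was chosen after the values were seen. Its direct value for RNA samples 2 and 1 came from array 2, corrected for the mean centred log2 ratio of Cy5 over Cy3 in the other pairs. In this fit LIF was lowest in RNA sample 2, the sample with the highest PAG6 and CD46, or highest where those were lowest if the ratios ran the other way, but no difference passed.

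Between RNA samples 3 and 2, 2 of the 3 genes tested were past the threshold, and both were lower in RNA sample 3, where 14.6% of all 5431 probes were also called lower. In the fit of single arrays 1 of 3 was lower, against 10.3% of all probes. In the F test 1 of 3 passed, against 21.8% of all probes, and with single arrays 0 of 3 against 8.53%. Between RNA samples 2 and 1 none of the 3 passed, against 19.5% of all probes, or 5.63% with single arrays, and 3 of 3 had an unadjusted p under 0.05 in the fit of pair averages, as did 1823 of all 5431 probes. In the comparison of RNA samples 3 and 1 none passed, against 0.203% of all probes, and none had an unadjusted p under 0.05, against 291 of all 5431 probes. The smallest difference called was 1.11 between 2 and 1 and 1.69 between 3 and 1, so smaller ones could not be detected there.

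**Figure D3:**
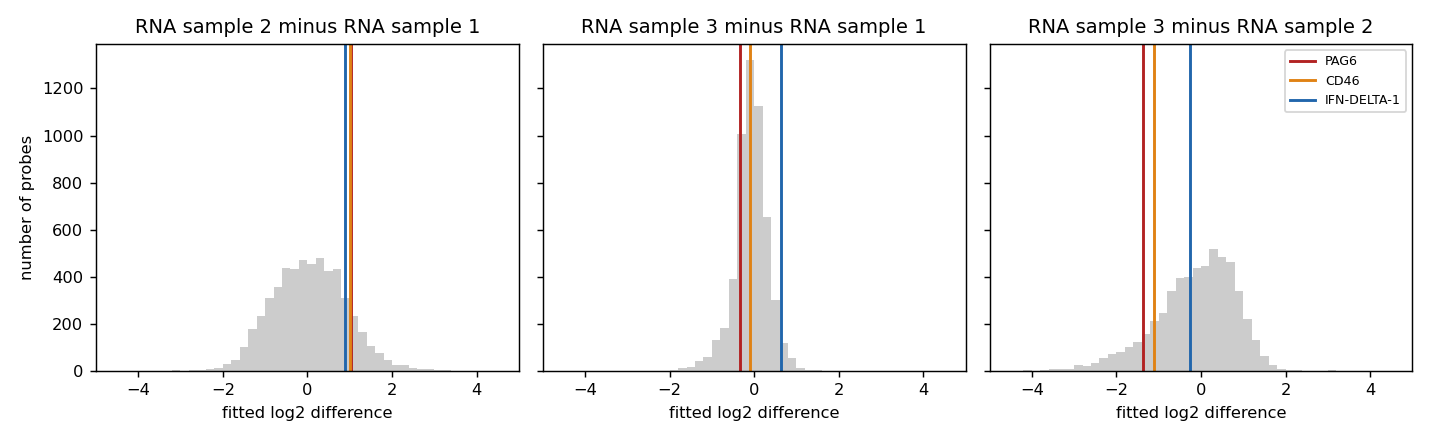
Number of probes by fitted log2 difference for the 5431 probes measured on all 6 arrays, in each comparison, with lines at PAG6, CD46 and IFN-DELTA-1. Between RNA samples 3 and 2 PAG6 (-1.37) and CD46 (-1.11) lie below 0, at the 87.6 and 79.6 percentiles of size. Between RNA samples 2 and 1 the 3 genes lie together between 0.90 and 1.04.

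Relative to the mean of the 3 RNA samples, all 3 genes tested had their highest fitted level in RNA sample 2 with ratios read as Cy5 over Cy3, and would have their lowest there if the ratios ran the other way. PAG6 had a fitted log2 level of 0.80 in RNA sample 2, -0.23 in RNA sample 1 and -0.57 in RNA sample 3, each ± 0.25 (SE). CD46 had 0.70, -0.30 and -0.40 in the same order, also ± 0.25. For both genes RNA samples 1 and 3, the neighbours at the low end, did not differ beyond their error. IFN-DELTA-1 had 0.39 in RNA sample 2, 0.12 in RNA sample 3 and -0.51 in RNA sample 1, and no neighbours in that order differed beyond the threshold. Its direct pair average for 3 minus 2 was 0.16, the opposite order, so the place of RNA sample 2 came from the fit over the loop. How many of all probes tested were also highest in RNA sample 2 was not counted.

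**Figure D4:**
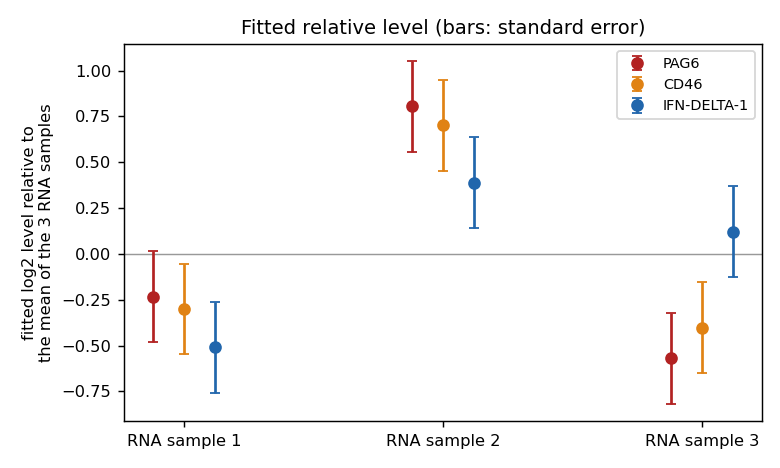
Fitted log2 level of PAG6, CD46 and IFN-DELTA-1 in RNA samples 1, 2 and 3, relative to the mean of the 3, with bars of 1 standard error (0.25). With ratios read as Cy5 over Cy3, RNA sample 2 is highest for each gene, and RNA sample 3 is lowest for PAG6 and CD46; the reverse reading turns this order.

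Both arrays of the pair of RNA samples 3 and 1 went opposite ways for 4 of 4 genes, where 25.2% of the probes tested had the same direction on both. The pair 2 and 1 gave 1 direction for 3 of 3 genes measured (57.3% of all probes tested) and the pair 3 and 2 for 2 of 4 (61.8%). Directions in the pair 3 and 1 depended on the centring. The medians of arrays 3 and 4 were 0.13 and 0.18 over the probes tested, but 0.51 and 0.64 over all probes measured on each. Against the latter, LIF (deposited 1.17 and 0.19) and IFN-DELTA-1 (0.29 and 0.74) would have the same direction on both arrays. PAG6 and CD46 would still have opposite ones. The dye effect was largest for PAG6 and CD46 in the pair 3 and 1. This effect, the mean centred log2 ratio of Cy5 over Cy3 on both arrays of a pair, was -1.39 for PAG6 and -1.30 for CD46 there, at the 96.1 and 94.7 percentiles of sizes over the 19842 probes measured in that pair. On both arrays the Cy3 channel was brighter, whichever RNA sample it held. In the pairs 2 and 1 and 3 and 2 the dye effect was -0.38 and -0.28 for PAG6 and -0.17 and -0.74 for CD46, below 0 each time. For IFN-DELTA-1 it was -0.62 in the pair 2 and 1, 0.36 in the pair 3 and 1 and 0.82 in the pair 3 and 2, and for LIF it was 0.53 and 0.91 in the latter pairs. An average of both arrays of a pair removes a dye effect, whereas a value from a single array does not. Variation between hybridisations also enters these values, cannot be told apart from the dye here, and is not removed by the average.

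Likeness between genes was measured as the root mean square difference of their centred pair averages, over 3 pairs that share the same arrays. The named genes most like CD46 were HCRT, the orexin precursor, at 0.09, CYP8B1, a hydroxylase that acts in making bile acids, at 0.16, and MC1R, a melanocortin receptor, at 0.22. PAG6 ranked 5 among the 55 named genes compared with CD46, at 0.27, where the median over those genes was 0.84 and 236 of the other 5430 probes (4.35%) were closer. For PAG6 the closest were HCRT (0.23), CD46 (0.27) and CYP8B1 (0.28). IFN-DELTA-1 was closest to POMC, the precursor of melanocortins, at 0.18, to LY49, a lectin-like receptor of natural killer cells, at 0.36, and to SLC22A2, an organic cation transporter, at 0.39. It stood 0.96 from PAG6 and 0.90 from CD46. Over the 2 pairs in which LIF was measured, it was closest to NPG4, a protegrin, at 0.07, to QDPR, a pteridine reductase, at 0.08, and to FGF9, a fibroblast growth factor, at 0.15, and it stood 1.46 from PAG6.

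Few other genes of these pathways had an annotated probe, and those not measured on all 6 arrays are named here after their values were seen. Of 31 interferon genes, receptors and responses listed, IFNA1 and IFNB1 did besides IFN-DELTA-1, and neither was tested. IFNB1, the beta interferon, had log2 differences of -1.04 and 1.37 on arrays 3 and 4 and -0.85 and 2.43 on arrays 5 and 6. IFNA1, an alpha interferon, had -0.51 on array 3 and 0.85 on array 4. All 3 interferons thus had opposite directions on both arrays of each pair with RNA sample 3 in which both arrays measured them. LIF and IL2 did the same, and IL1A did so only in the pair 3 and 1. The same direction on both arrays held for 25.2% of the probes tested in the pair 3 and 1 and 61.8% in the pair 3 and 2. Opposite directions were therefore usual in the pair 3 and 1 among the probes tested. Those shares do not cover IFNA1, IFNB1, LIF, IL2 or IL1A, which were not measured on all 6 arrays. The centring medians of arrays 3 and 4 were 0.13 and 0.18, against 0.51 and 0.64 over all probes measured on each. With this centring, a probe at those higher medians lies below 0 on array 3 and above 0 on array 4.

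Of 30 listed genes of the interleukin 6 family and related cytokines, IL2 and IL1A had a probe besides LIF. IL2, a T cell growth factor, had -1.66 and 1.05 on arrays 3 and 4 and -0.15 and 1.40 on arrays 5 and 6. IL1A, interleukin 1 alpha, had -0.83 and 0.96 on arrays 3 and 4, and 0.97 and 0.79 on arrays 5 and 6, where both arrays put it higher in RNA sample 3. The median of LIF, IL2 and IL1A was -0.30 for 3 minus 1 and 0.65 for 3 minus 2, against 0.04 and 0.41 over all probes measured in those pairs. None of them was measured on all 6 arrays, so none was tested.

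Of 31 complement genes, MBL2, a mannose-binding lectin that starts the lectin pathway, had a probe besides CD46. It had -0.12 on array 3 and 0.85 on array 4 and was not tested. Of 31 genes of immune recognition, FAS, a death receptor, had a probe, with 0.78 and -0.62 on arrays 3 and 4 and -0.85 and -0.76 on arrays 5 and 6. FAS and CD46 thus had values below 0 on both arrays 5 and 6, but FAS was not tested. Of all probes tested, 61.8% had the same direction on both arrays of that pair. PAG6 was the only annotated probe among 16 listed pregnancy-associated glycoproteins and related proteinases.

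Of 44 genes listed as uterine partners of these signals, 5 had a probe and 3 were tested. SULT1E1, the oestrogen sulfotransferase, and OXTR, the oxytocin receptor, passed the F test (limma adjusted p 7.6e-13 and 0.0154), as did 21.8% of all probes tested. SAL1, salivary lipocalin, did not (adjusted p 0.938). In RNA sample 3 against 2, SULT1E1 was lower by 2.77 and OXTR higher by 1.13 on the log2 scale (adjusted p 9.36e-09 and 0.0435). Of these, SULT1E1 thus went the way of PAG6 and CD46 and OXTR the opposite way. ESR2, the oestrogen receptor beta, averaged 1.82 for 2 minus 1 from arrays at 4.00 and -0.36, and ITGB1, an integrin subunit, had 0.95 and 0.72 on arrays 5 and 6.

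Among the markers of other cells only INHA, the inhibin alpha subunit of granulosa cells, and SAL1 were tested. INHA passed the F test (limma adjusted p 0.00593), as did 21.8% of all probes tested. It was higher in RNA sample 2 than in RNA sample 1 (1.58, adjusted p 0.0037), the direction that PAG6, CD46 and IFN-DELTA-1 also had, with 4.50 on array 1 and 0.38 on array 2. In the comparison in which PAG6 and CD46 were called, 3 minus 2, INHA had a fitted difference of -0.43 (adjusted p 0.492). Its pair averages were 2.44 for 2 minus 1, 0.29 for 3 minus 1 and 0.43 for 3 minus 2. They did not close the loop, and the last was opposite in sign to the fitted value. INHA and FSHR were the only 2 of 8 granulosa markers with an annotated probe, FSHR was measured on 3 arrays, and their part in the results for PAG6 and CD46 was not tested. The leukocyte markers CD4 and TYROBP averaged 0.54 and 0.81 for 3 minus 2, where the median over all probes measured in that pair was 0.41, and were not tested. CD4 had -0.77 on array 5 and 1.85 on array 6, so its arrays went opposite ways, and TYROBP had 0.40 and 1.21.

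**Figure D5:**
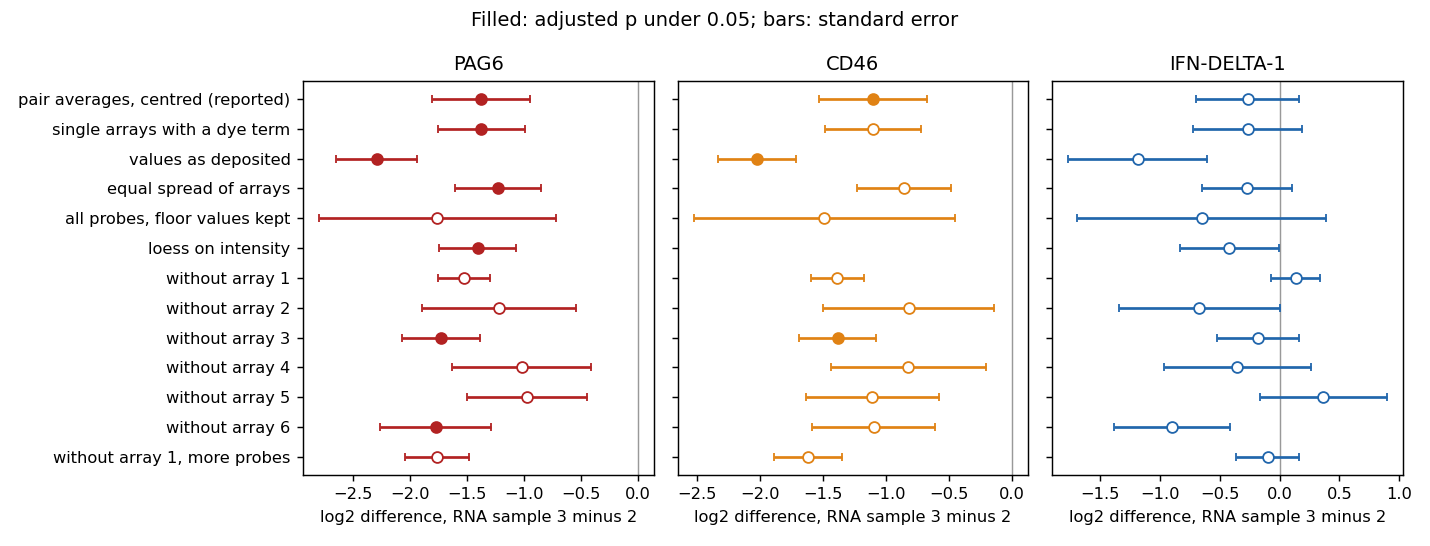
Fitted log2 difference between RNA samples 3 and 2 under each setting, with bars of 1 standard error and filled points where the adjusted p was under 0.05. PAG6 and CD46 stay below 0 in every setting shown but are filled in only some, and IFN-DELTA-1 lies above 0 without array 1 (0.13) and without array 5 (0.37).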

How the data were processed

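Gene expression was measured on 2-colour arrays in 3 RNA samples of pig blastocysts. Per the labels' protocols, RNA was amplified in 2 rounds of T7 transcription and labelled chemically. The authors deposited 1 log2 ratio per probe and array; of how these were made (scanner, background correction, scaling, direction) the sources used here say nothing. Gene symbols came from the platform annotation, and all 178 annotated probes had 1 symbol and an Entrez gene identifier found in the RefSeq gene table. List genes and markers were looked up by platform symbol, so a gene under another symbol would be missed.

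Values with a whole-number ratio, a reciprocal of one (relative tolerance 1e-05) or a ratio of 1 were left out. The 5431 probes measured on all 6 arrays were centred on the array median, turned and averaged within pairs, and limma 3.58.1 under R 4.3.3 fitted the 3 pair averages with Benjamini-Hochberg adjustment over all of them at a threshold of 0.05. The fit left 1 residual degree of freedom, and moderation gave all probes 1 common variance. As the RNA samples themselves are compared and none has a replicate of its own, p-values reflect how repeat hybridisations vary, and the number of arrays limits the precision. Scripts were tested on simulated data.

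Alternatives were single arrays with a dye term, uncentred values, equal spread, floor values kept, loess on the terms of the ratios, and each array left out. With an array left out, the other array of its pair was corrected for the mean dye effect of the other pairs. The members, lists and settings were chosen with earlier results of these data known. By rule, the text names all 4 genes, the 3 annotated genes closest to each, and list genes that passed the F test or were measured on all 6 arrays; other list genes and markers were named after their values were seen. No sequence was printed.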

Additional observations from a re-analysis of the deposited data

Results flagged for a closer look

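On array 1 the centred log2 ratio of IFN-DELTA-1, read as Cy5 over Cy3, was -1.95, while it lay between 0.15 and 0.98 on the other 5 arrays. The gap to the nearest array made up 0.718 of the range over the 6 arrays, above Dixon's 95% limit for 6 values. With arrays turned to a common direction, as in all differences reported, the share was 0.370 and below that limit. Chance sets about 1 in 20 groups apart where all values repeat 1 quantity. These arrays compared different pairs of RNA samples with the dyes exchanged, so that share does not apply here. Of the 8 groups of values examined (the same 4 genes, unturned and turned), unturned IFN-DELTA-1 was the only one past its limit. Array 1 also had the highest share of probes not measured (64.3%).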

How the results depend on the processing

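Between RNA samples 3 and 2 PAG6 passed in 6 of 12 alternatives and CD46 in 2 of 11, since CD46 could not be fitted with loess, where its terms on array 6 were not found. CD46 did not pass with single arrays (-1.11), with equal spread (-0.86) or with all probes and floor values (-1.49), where PAG6 (-1.76) did not pass either. With array 1 left out and the probes measured on the other 5 arrays, an alternative chosen after seeing the data, PAG6 had -1.76 and CD46 -1.62, and neither passed. Leaving out 1 array gave -1.78 to -0.97 for PAG6 and -1.39 to -0.82 for CD46. The F test adjusted p of PAG6 was 0.0907 with single arrays, 0.772 with floor values, 0.0966 with loess, 0.170 in the added alternative and 0.00722 to 0.559 with 1 array left out. That of CD46 was 0.0434 uncentred and 0.0216 to 0.855 with 1 array left out. Uncentred, PAG6 (2.25) and CD46 (2.21) passed between RNA samples 2 and 1.

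Signs that turned belonged to differences that were not called. For 3 minus 1 CD46 had 0.19 uncentred, 0.18 without array 1, 0.46 without array 4 and 0.16 in the added alternative, and PAG6 had 0.37 without array 4; with 1 array left out they ranged from -0.67 and -1.04 up to these values. For 3 minus 2 IFN-DELTA-1 had 0.13 without array 1 and 0.37 without array 5, and as little as -0.90 without array 6. The other directions of the 3 genes stayed the same in all alternatives run.

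Counts of probes past the threshold, 1059 between RNA samples 2 and 1, 11 between 3 and 1, 1123 between 3 and 2 and 1184 in the F test, moved more. With single arrays they were 306, 0, 656 and 463, and with loess 185, 0, 332 and 185. In the added alternative they were 0, 0, 0 and 0 of 8411 in limma, where 2279, 141, 2050 and 1674 had an unadjusted p under 0.05. Uncentred, 2182 and 0 were called in the first 2 comparisons, equal spread gave 108 between 3 and 1, and floor values gave 4 there and 559 between 3 and 2. With 1 array left out the counts ran from 0 to 1328, 0 to 436, 186 to 1476 and 0 to 1813, and the counts of 0 in the first and the last were those without array 1. The cause of these changes was not tested. No paired analysis was possible because all arrays belong to 1 group, with no second group that shares replicate numbers.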
